A study of Rattus norvegicus with 34 samples.

Results

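Livers of 24-month-old control Brown Norway rats were compared with livers of 12-month-old control Brown Norway rats, an inbred strain used in studies of ageing. The arrays were taken by their titles, which name strain, age and dosing, and no measured value entered the choice. They were 6 of the series' 34 arrays, 3 at 24 months and 3 at 12 months, each from a different numbered male rat that had received no treatment, per the labels. Each array measured total RNA of liver on an Affymetrix rat expression array. The wider series was about enzymes that metabolise foreign compounds, in male rats of different ages and after toluene, a solvent that the liver oxidises. Set beside the control rats were 3 Brown Norway rats of 24 months and 3 of 12 months given toluene at 1 g/kg in corn oil by gavage and killed 4 hours later, and 3 control rats of 4 months. All Brown Norway rats were housed individually. Male rats of a second strain, F344, kept at the supplier until the week before necropsy, untreated and 4 at each age, were set beside them at 24 and 11 months. Other rats were not compared but entered the fit of their strain and its filter on low signals. They were 3 Brown Norway rats of 4 months given toluene at 1 g/kg, and 4 F344 rats each of 18 and 6 months. The labels name no vehicle for the control rats, and neither feeding state nor the hour of death nor an array batch.

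The adult liver takes up amino acids from portal blood, strips their nitrogen into urea and passes the carbon skeletons on to glucose or energy metabolism. A small set of its enzymes is written as male-dominant in rats because pulses of growth hormone in males keep their genes active, and several of these enzymes are cytochromes P450 that oxidise steroids and drugs. Kupffer cells, the resident macrophages of liver, line its sinusoids, and interferons switch on a broad set of antiviral genes in hepatocytes and immune cells alike.

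The deposited values were linear probe set signals on a common scale. Median signals of the 18 Brown Norway arrays ran between 35.5 and 38.2, and between 52.7% and 54.7% of their probe sets exceeded a signal of 32, which was set as the floor before taking log2; values under it are given as measured and entered every fold change as the floor. The number of arrays, and not a read depth, limited precision. The Gapdh 3'/5' signal ratio, a measure of RNA integrity, was 0.834, 0.944 and 0.818 in 24-month controls, against 0.864, 0.774 and 0.816 in 12-month controls. All 10 measured hepatocyte markers, albumin (Alb) among them, lay above the floor on all 6 arrays, with summed signals of 59066, 58092 and 55816 in 24-month controls, against 56082, 58270 and 58806 in 12-month controls. On the first principal component, which held 23.2% of the variance over the 18 arrays, the 24-month controls lay at 25.2, 27.5 and 4.7, against -4.9, -10.4 and -9.6 for the 12-month controls. Outside these groups, 2 arrays lay on the side of the older controls, the third 12-month toluene array at 22.6 and the second 4-month control array at 20.9.

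Of 8586 genes tested, 2 rose at 24 months and none fell at a Benjamini-Hochberg adjusted p under 0.05 in limma, that is 0.0233% of the genes. At an unadjusted p under 0.05, 657 genes (7.65%) were higher and 590 (6.87%) lower, and the median log2 fold change of all genes was 0.02. The signals of the 3 older and 3 younger rats did not overlap for 763 genes (8.89%) higher and 686 (7.99%) lower. These percentages are the background against which each group of genes is read. The adjusted call is sensitive to single rats: without the second 24-month control 48 genes passed, without the third 28 passed, and without the first or the second 12-month control 0 passed.

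The gene with the smallest p was N4bp2l1, whose product is named for its likeness to the NEDD4-binding protein N4BP2. Its signal was 49.8, 57.6 and 55.7 in 24-month controls, against 30.6, 15.5 and 29.9 in 12-month controls. All 3 older rats lay above the floor of 32 and all 3 younger rats below it, so the groups did not overlap and the difference is a lower bound of at least 1.70-fold. With the younger rats set at the floor the log2 fold change was 0.76 with an SE of 0.10 and an adjusted p of 0.0153. Signals were 33.1, 32.8 and 24.0 in 4-month controls, close to those of the 12-month controls. In dosed rats the signal was 6.84, 27.3 and 31.0 at 24 months, against 25.0, 33.7 and 39.6 at 12 months, and only 2 of these 6 values exceeded the floor. The call was lost without the first or the second 12-month control (adjusted p between 0.0518 and 0.124), with a floor of 8, with a minimum of 1.5-fold, and when only the 9 control arrays or the 6 arrays compared were fitted.

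Lgals3bp, a secreted glycoprotein that binds galectin-3 and is induced by interferons, was the other gene that rose. Its signal was 220.2, 126 and 140.4 in 24-month controls, against 60.99, 63.4 and 59.2 in 12-month controls. Mean signals were 162 ± 50.7 in 24-month controls and 61.2 ± 2.13 in 12-month controls (SD, n = 3 each). Every older rat lay above every younger one, the first by the widest margin. The fold was 2.57 (log2 fold change 1.36, SE 0.20, adjusted p = 0.0288), and the call was lost without the first 24-month control or without any one of the 12-month controls (adjusted p between 0.0518 and 0.153). It was also lost with no filter on low signals, with a lower or a higher floor, with a minimum of 1.5-fold, and when only the 9 control arrays or the 6 arrays compared were fitted. The 4-month controls had 63.6, 56.2 and 48.3. In a bulk liver sample more cells of a type and more RNA per cell cannot be told apart, here and in what follows.

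**Figure D1:**
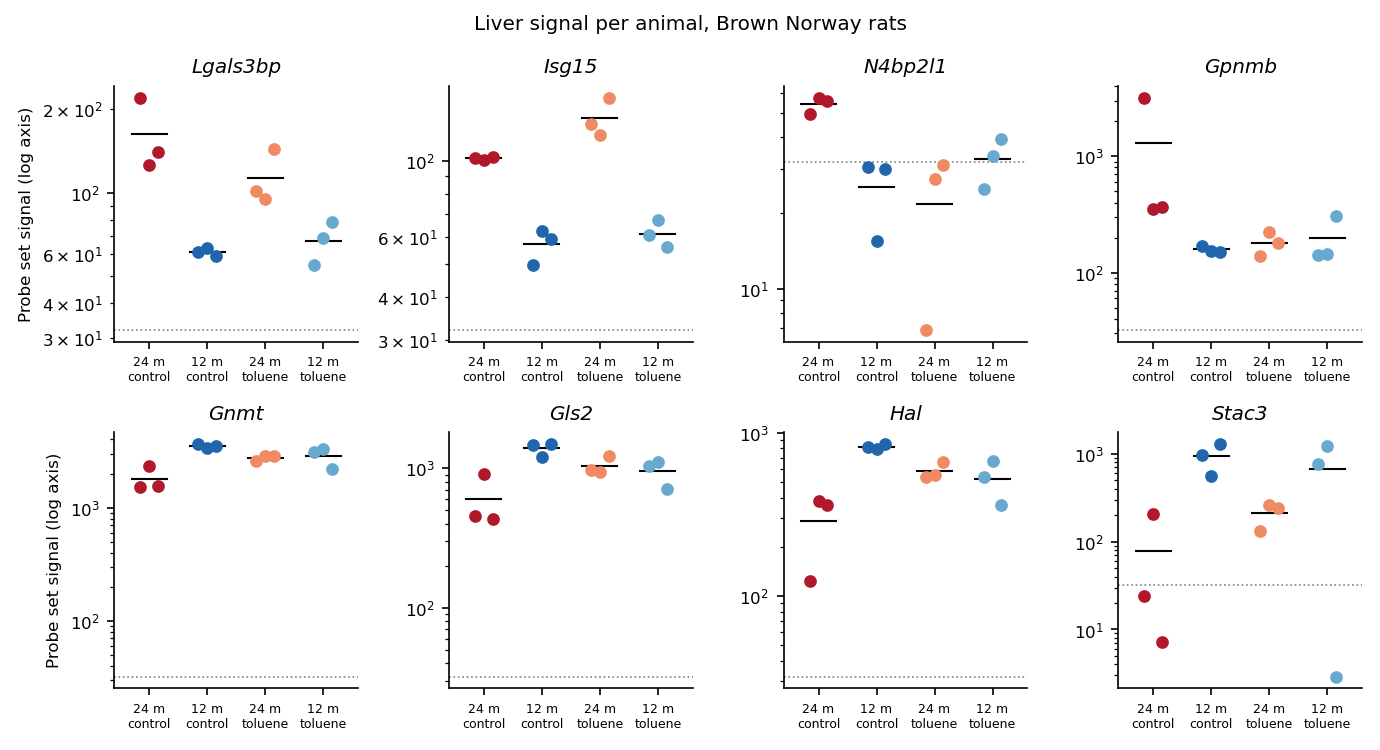
Probe set signal (log axis) of 8 genes in each Brown Norway rat, with 24-month control, 12-month control, 24-month toluene and 12-month toluene groups from left to right; points are rats, black lines are means and the dotted line is the floor of 32. In the 2 control groups the 3 older rats lie above the 3 younger ones for Lgals3bp, Isg15, N4bp2l1 and Gpnmb and below them for Gnmt, Gls2, Hal and Stac3.

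Lgals3bp belongs to a list of interferon-responsive genes, of which 41 were tested. In controls 11 of them were higher at 24 months and 2 lower at an unadjusted p under 0.05, against backgrounds of 7.65% and 6.87%, and the list's median log2 fold change was 0.23 against 0.02 for all genes. Isg15, a ubiquitin-like protein that interferons induce, had 102, 100.5 and 103 in 24-month controls, against 49.8, 62.2 and 59.2 in 12-month controls. The older rats had almost the same value and all exceeded the younger ones (log2 fold change 0.84, SE 0.14), at an adjusted p of 0.0514 that missed the threshold. Irf7, the transcription factor that amplifies interferon production, had 98.5, 88.4 and 72.8 in 24-month controls, against 56.2, 43.0 and 57.4 in 12-month controls, again without overlap (log2 fold change 0.73, unadjusted p = 0.000758). Mx2, an antiviral GTPase, had 33.9, 52.6 and 43.9 in 24-month controls, against 33.4, 14.5 and 15.7 in 12-month controls. Its older rats all exceeded its younger ones by a small margin, with 2 of the younger below the floor. Cxcl11, a chemokine of the list, went the other way with 222, 149 and 455 in 24-month controls, against 446, 476 and 540.5 in 12-month controls, where the third older rat overlapped the younger group (log2 fold change -0.98, unadjusted p = 0.00658). Helz2, a helicase, was also lower in the older rats, with 136, 152 and 198 in 24-month controls, against 244, 205 and 252 in 12-month controls. Without the first 24-month control 7 members were higher, and without the second 1 was lower.

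Promoters of 3 of these genes are shown because the interferon-stimulated response element, the site through which interferon signalling reaches such genes, has a short core that can be read in them. Windows ran from 250 bases before to 50 bases after the gene start, in RefSeq's sequence of the rat build GRCr8, and are printed along the gene's own strand. The core searched was TTTC, any 2 bases and TTTC again, on both strands, so that the other strand reads GAAA, any 2 bases and GAAA; capitals mark each match, and overlapping matches run together. Lgals3bp lies on the minus strand at chr10:104127799-104128098 with the match starting 50 bases before the gene start, Irf7 on the minus strand at chr1:205799974-205800273 with the match starting 69 bases before it, and Oas1a on the plus strand at chr12:41330216-41330515 with 2 overlapping matches starting 41 and 35 bases before it.
Lgals3bp: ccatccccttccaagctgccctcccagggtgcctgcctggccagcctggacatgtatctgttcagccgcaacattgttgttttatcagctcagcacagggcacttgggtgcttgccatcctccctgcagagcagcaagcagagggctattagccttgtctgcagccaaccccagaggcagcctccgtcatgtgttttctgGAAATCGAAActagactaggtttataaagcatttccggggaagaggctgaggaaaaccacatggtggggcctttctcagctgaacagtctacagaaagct
Irf7: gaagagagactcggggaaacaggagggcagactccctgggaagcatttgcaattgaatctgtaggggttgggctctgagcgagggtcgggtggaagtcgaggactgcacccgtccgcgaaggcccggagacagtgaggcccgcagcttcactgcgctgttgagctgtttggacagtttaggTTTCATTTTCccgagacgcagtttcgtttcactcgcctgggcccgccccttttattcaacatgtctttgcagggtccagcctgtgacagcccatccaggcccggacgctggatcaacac
Oas1a: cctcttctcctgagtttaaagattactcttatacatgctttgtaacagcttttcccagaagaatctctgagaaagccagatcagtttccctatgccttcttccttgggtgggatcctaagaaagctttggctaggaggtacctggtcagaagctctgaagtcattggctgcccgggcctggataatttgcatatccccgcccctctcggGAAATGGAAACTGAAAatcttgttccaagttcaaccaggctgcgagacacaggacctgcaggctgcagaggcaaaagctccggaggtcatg

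The core was in 22 of the 33 tested members with a promoter in the table (66.7%), in 223 of the 7259 promoters of tested genes (3.07%) and in 1034 of all 27457 promoters (3.77%). A match describes letters in these windows, and not that a factor bound there. The list was drawn up as interferon-responsive genes, so a high share follows from that choice and describes nothing about age. Members with a negative log2 fold change in controls carried the core too. Oas1a, an enzyme that senses viral double-stranded RNA, carried 2 matches and had 43.9, 54.1 and 38.6 in 24-month controls, against 27.7, 33.8 and 40.1 in 12-month controls; the third 12-month rat overlapped the older group (log2 fold change 0.36, unadjusted p = 0.0104).

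The interferon list was also higher with age in the dosed rats, which share no animal with the controls. There 16 of 41 members were higher and 0 lower at an unadjusted p under 0.05, against backgrounds of 1.99% and 1.23% of genes, with a median log2 fold change of 0.36 against 0.00 for all genes, and 11 were higher without the third 12-month dosed rat. Isg15 rose in dosed rats, with 128.5, 119 and 153 in dosed 24-month rats, against 60.6, 67.2 and 56.0 in dosed 12-month rats (log2 fold change 1.12, SE 0.14, adjusted p = 0.00351). Lgals3bp had 101.2, 94.7 and 144 in dosed 24-month rats, against 54.8, 68.9 and 78.2 in dosed 12-month rats, without overlap, at a log2 fold change of 0.74 and an adjusted p of 0.66. Usp18, the protease that removes ISG15 from proteins, had 33.7, 39.9 and 36.7 in 24-month controls, against 37.2, 35.5 and 44.2 in 12-month controls, which overlapped, and 48.5, 48.4 and 74.5 in dosed 24-month rats, against 24.0, 33.0 and 25.8 in dosed 12-month rats, which did not. For Usp18 the control difference was -0.08 and the dosed one 0.79 on the log2 scale, and they differed at an unadjusted p of 0.000622 (adjusted p = 0.253). Over the list the control difference lay above the dosed one for 2 members and below it for 8 at an unadjusted p under 0.05, against 5.21% and 6.22% of all genes. The 8 became 5 without the first dosed 12-month rat. The 2 became 4 without the second 24-month control, 1 without the first 12-month control or the second dosed 24-month rat, and 0 without the first 24-month control, the second or the third 12-month control, the first dosed 24-month rat, or the second or the third dosed 12-month rat. In F344 livers 7 of 47 members rose between 11 and 24 months and 0 fell at an adjusted p under 0.05. Of 9214 F344 genes 4.93% passed, 2.6% higher and 2.32% lower. At that threshold 1 of 41 members rose and 0 fell in Brown Norway controls, where 0.0233% of all genes passed.

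Among genes of MHC class I and antigen processing, which load peptides for cytotoxic T cells, 5 of 17 were higher in older controls and 0 lower. The backgrounds at that unadjusted p under 0.05 were 7.65% and 6.87%, and the list's median log2 fold change was 0.20. Some of its members are also on the interferon list, so the counts of both lists overlap. Psme1, a subunit of the proteasome activator, had 1956, 1639 and 1724 in 24-month controls, against 1398, 1269 and 1266 in 12-month controls, without overlap (log2 fold change 0.43, unadjusted p = 0.00136). In dosed rats 3 of the 17 were higher, against 1.99% of all genes. Only 1 member of this list was higher without the first 24-month control, 2 without the second 12-month control and 3 without the third.

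With both genes that passed included, 34 genes had an adjusted p under 0.1, 16 higher and 18 lower. Glipr1, a secreted or membrane protein that p53 can induce, had 157, 95.7 and 92.4 in 24-month controls, against 45.4, 46.8 and 42.5 in 12-month controls. No older rat overlapped a younger one (log2 fold change 1.32, SE 0.22, adjusted p = 0.0514), and its dosed rats had 63.7, 78.1 and 123 in dosed 24-month rats, against 54.9, 49.2 and 44.0 in dosed 12-month rats. Psat1, which makes serine from an intermediate of glycolysis, had 86.1, 98.5 and 181 in 24-month controls, against 22.5, 1.92 and 1.14 in 12-month controls. All 3 younger rats were below the floor, so that the older rats were at least 3.61-fold higher (adjusted p = 0.0749). Hes1, a transcriptional repressor downstream of Notch, had 205, 248 and 224 in 24-month controls, against 151, 126 and 118 in 12-month controls, without overlap (log2 fold change 0.78, SE 0.15, adjusted p = 0.0749). Ms4a6a, a membrane protein of macrophages, had 123, 61.6 and 79.2 in 24-month controls, against 39.9, 30.9 and 25.1 in 12-month controls; 2 of the younger rats were below the floor (log2 fold change 1.30).

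Further genes of this group act on RNA. Parn, which shortens poly(A) tails, had 59.4, 53.2 and 59.8 in 24-month controls, against 34.3, 37.8 and 26.6 in 12-month controls, with log2 fold change 0.73. Snrpa1, a protein of the U2 splicing particle, had 106, 97.8 and 85.5 in 24-month controls, against 64.4, 64.0 and 42.7 in 12-month controls, with log2 fold change 0.78. Dus1l, of the family that makes dihydrouridine in transfer RNA, had 203, 198 and 179 in 24-month controls, against 143, 126 and 125 in 12-month controls, with log2 fold change 0.56. In all 3 genes each older rat exceeded each younger rat. Dhx32, an RNA helicase-like protein, had the opposite direction, with 33.1, 36.1 and 42.0 in 24-month controls, against 56.9, 59.7 and 54.5 in 12-month controls (log2 fold change -0.63). Adra1b, the adrenoceptor through which noradrenaline acts on rat hepatocytes, had 173, 202 and 230.0 in 24-month controls, against 354, 294 and 309.8 in 12-month controls (log2 fold change -0.67). Rnf167, a ubiquitin ligase of endosomes and lysosomes, had 109, 115 and 112 in 24-month controls, against 156, 161 and 175 in 12-month controls (log2 fold change -0.55), and L3mbtl3, a chromatin reader, had 34.2, 27.4 and 32.9 in 24-month controls, against 53.4, 48.7 and 69.2 in 12-month controls (log2 fold change -0.77). These 4 genes were lower in every older rat than in any younger one, with adjusted p between 0.0749 and 0.0841.

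**Figure D2:**
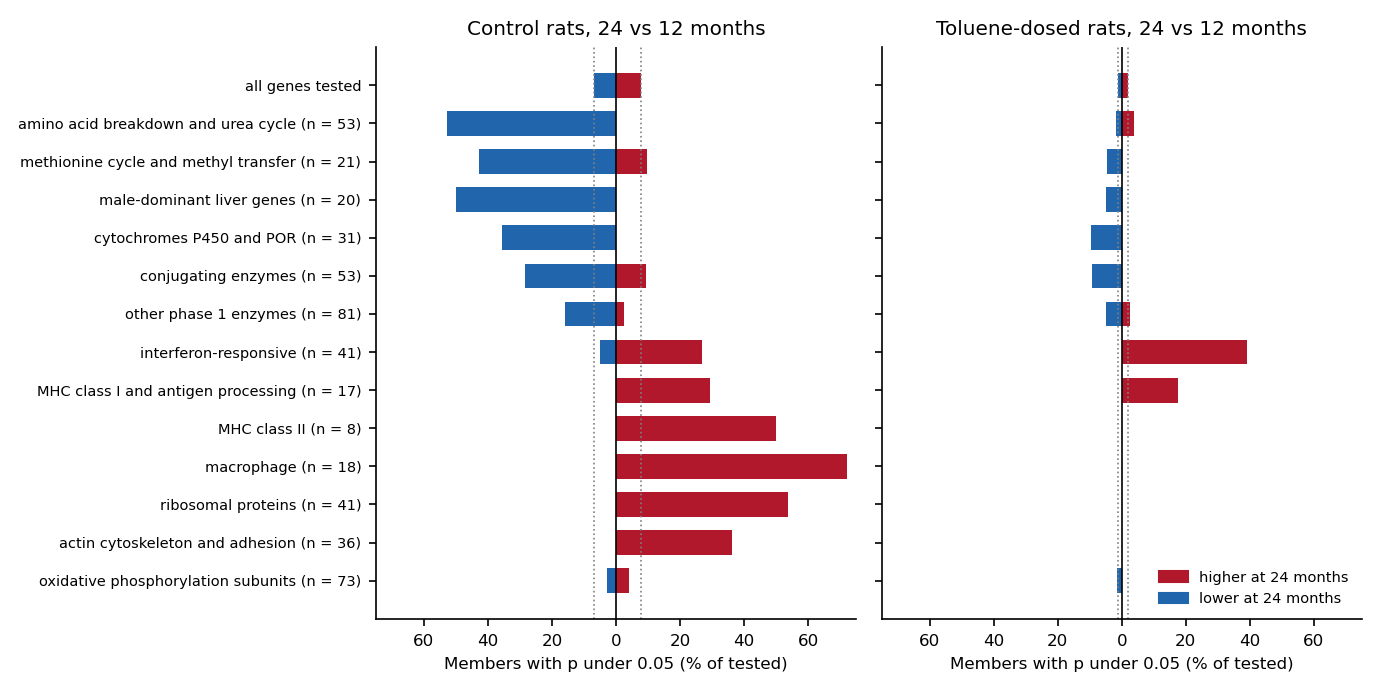
Share of tested members of 13 gene lists with an unadjusted p under 0.05 (x axis, percent; red to the right, higher at 24 months; blue to the left, lower) in control rats (left panel) and toluene-dosed rats (right panel); dotted lines are the shares among all genes tested. In controls the amino acid, methionine, male-dominant, P450, conjugating and other phase 1 lists extend mostly to the left. The immune, ribosomal and actin lists extend mostly to the right. Oxidative phosphorylation (3 of 73 higher, 2 lower) passes neither dotted line. In dosed rats the interferon list (16 of 41 members) and the MHC class I list (3 of 17) extend furthest.

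Genes of amino acid breakdown and the urea cycle were lower in older controls. Of 53 tested, 28 were lower and 0 higher at an unadjusted p under 0.05, against backgrounds of 6.87% and 7.65%, and none passed the adjusted threshold. The median log2 fold change was -0.37 and 49 members had a negative value. For 26 the older rats lay wholly below the younger ones, as for 7.99% of all genes. Without the first 24-month control 21 members were lower, and without the second 33.

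Gls2, the liver glutaminase that frees ammonia from glutamine, had 456, 910.0 and 431 in 24-month controls, against 1462, 1214 and 1491 in 12-month controls, with 1456, 1337 and 1292 in 4-month controls. Every older rat lay below every younger one, the second least far (log2 fold change -1.30, SE 0.25, adjusted p = 0.0749). Hal, which takes the amino group off histidine, had 123, 383 and 358 in 24-month controls, against 816, 788 and 849 in 12-month controls; the first older rat was the lowest (log2 fold change -1.67, adjusted p = 0.0845). Uroc1, the next enzyme of histidine breakdown, had 815, 1586 and 1382 in 24-month controls, against 2777, 2054 and 1903 in 12-month controls (log2 fold change -0.87). Oat, which moves the amino group of ornithine, had 1247, 2076 and 1263 in 24-month controls, against 3409, 4519 and 4333 in 12-month controls, without overlap (log2 fold change -1.45, adjusted p = 0.0845). Prodh, which starts proline breakdown, had 701, 794 and 537 in 24-month controls, against 931, 1182 and 1251 in 12-month controls (log2 fold change -0.74). In each of these 5 genes the second older rat had the highest value of its group.

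Further members act in transamination and in serine, leucine and tryptophan breakdown. Got1, the cytosolic aspartate aminotransferase, had 626, 951 and 345 in 24-month controls, against 1384, 2109.9 and 1497 in 12-month controls, and Gpt2, a mitochondrial alanine aminotransferase, had 433, 469 and 347 in 24-month controls, against 846, 844 and 555 in 12-month controls; the groups of both were apart. Sds, the serine dehydratase of gluconeogenesis, showed the widest spread, with 21.6, 410.4 and 27.1 in 24-month controls, against 987, 684 and 683 in 12-month controls, so that its log2 fold change of -3.37 carried an SE of 0.94. Sdsl, a relative of Sds, had a narrow one, with 60.4, 59.0 and 58.4 in 24-month controls, against 91.9, 98.7 and 105 in 12-month controls (log2 fold change -0.73). Ivd, which acts on the leucine breakdown product isovaleryl-CoA, had 370.2, 573 and 429.6 in 24-month controls, against 707, 712 and 764 in 12-month controls (log2 fold change -0.69). Kynu and Acmsd, both of the kynurenine route from tryptophan, were also lower in all older rats. Kynu had 1105, 1406 and 1376 in 24-month controls, against 2221, 2555 and 3557 in 12-month controls and Acmsd 74.5, 93.9 and 45.5 in 24-month controls, against 141, 154.7 and 185 in 12-month controls. The 4 members with a positive log2 fold change were Bckdha, Glud1, Csad and Tat. Bckdha, of branched-chain breakdown, had 315, 373 and 353 in 24-month controls, against 322, 289.5 and 269 in 12-month controls, with overlap (log2 fold change 0.24, unadjusted p = 0.0937). Tat, the tyrosine aminotransferase, averaged 1725 in 24-month and 1148 in 12-month controls.

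The urea cycle itself was uneven. Ass1, which joins citrulline and aspartate, had 4659, 5410.2 and 4442 in 24-month controls, against 6496, 6516 and 6866 in 12-month controls, without overlap (log2 fold change -0.46, SE 0.10, adjusted p = 0.0965). Otc, which makes citrulline, had 1567, 2349.9 and 2452 in 24-month controls, against 2778, 2895 and 3278 in 12-month controls (log2 fold change -0.52, unadjusted p = 0.007), and Nags, which makes the activator of the first step, had 305, 284 and 288 in 24-month controls, against 347, 382 and 368 in 12-month controls (log2 fold change -0.32). Cps1, the first step, overlapped, with 5453, 5349.9 and 4997 in 24-month controls, against 5387, 6291 and 5149 in 12-month controls (log2 fold change -0.09, SE 0.10), and so did Arg1, the last, with 4963, 5506 and 4064 in 24-month controls, against 5232, 6053 and 4711 in 12-month controls (log2 fold change -0.14, SE 0.14). A dimmer Cps1 probe set had a log2 fold change of -0.29 in limma on each probe set (unadjusted p = 0.0155). The Cps1 reading thus depended on the probe set. Glul, which fixes ammonia into glutamine, had 1381, 727 and 907 in 24-month controls, against 806, 1458 and 1093 in 12-month controls, also with overlap.

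The related list of the methionine cycle and methyl transfer had 9 of 21 members lower and 2 higher at an unadjusted p under 0.05. The backgrounds were 6.87% lower and 7.65% higher, and the higher count lies near its background. The list's median log2 fold change was -0.27. Gnmt, the abundant liver enzyme that uses up surplus S-adenosylmethionine, had 1509, 2312 and 1538 in 24-month controls, against 3639, 3351 and 3486 in 12-month controls, with 3407, 3731 and 3222 in 4-month controls. The older rats were all below the younger ones (log2 fold change -0.995, SE 0.18, adjusted p = 0.0749). Sardh, which oxidises the sarcosine that Gnmt makes, had 401, 491 and 446 in 24-month controls, against 882, 709 and 685 in 12-month controls (log2 fold change -0.76), and Aldh1l1, a folate enzyme, had 680.1, 1143 and 1247 in 24-month controls, against 1688, 1491 and 2105 in 12-month controls (log2 fold change -0.82). Neither overlapped. The 2 higher became 1 without the first or the second 24-month control or the third 12-month control.

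Few genes of either list differed in dosed rats. Few of all genes did there either, 1.99% higher and 1.23% lower at an unadjusted p under 0.05. Of 53 amino acid genes 2 were higher, or 1 without any dosed rat other than the first 12-month one, and 1 lower (median log2 fold change 0.05). Of 21 methionine cycle genes 0 were higher and 1 lower, also with a median of 0.05. These counts lie near those backgrounds. Gls2 had 965, 936 and 1219 in dosed 24-month rats, against 1042, 1107 and 713 in dosed 12-month rats, Hal had 531, 548 and 664 in dosed 24-month rats, against 531, 669 and 359 in dosed 12-month rats and Gnmt had 2577, 2837 and 2837 in dosed 24-month rats, against 3099, 3286 and 2214 in dosed 12-month rats, so that the groups of each overlapped. The control difference lay below the dosed one for 27 of 53 amino acid genes and above it for 1 at an unadjusted p under 0.05, against backgrounds of 6.22% and 5.21%. That count of 27 was 15 without the first 24-month control, 17 without the third 24-month dosed rat and 18 without the third 12-month control, and the 1 ran between 0 and 3, the most without the third 24-month control. For Gls2 the 2 differences were apart by -1.44 (SE 0.35, unadjusted p = 0.00084, adjusted p = 0.253). Gavage, corn oil and toluene came together in the dosed rats and cannot be told apart. In F344 livers 4 of 52 amino acid genes fell and 0 rose at an adjusted p under 0.05 (median log2 fold change -0.20). Of all F344 genes 2.32% fell and 2.6% rose. At that threshold 0 of 53 amino acid genes fell or rose in Brown Norway controls, where 0.0233% of all genes passed. Between the strains 0 of 49 differed after adjustment, against 0.163% of all genes compared.

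**Figure D3:**
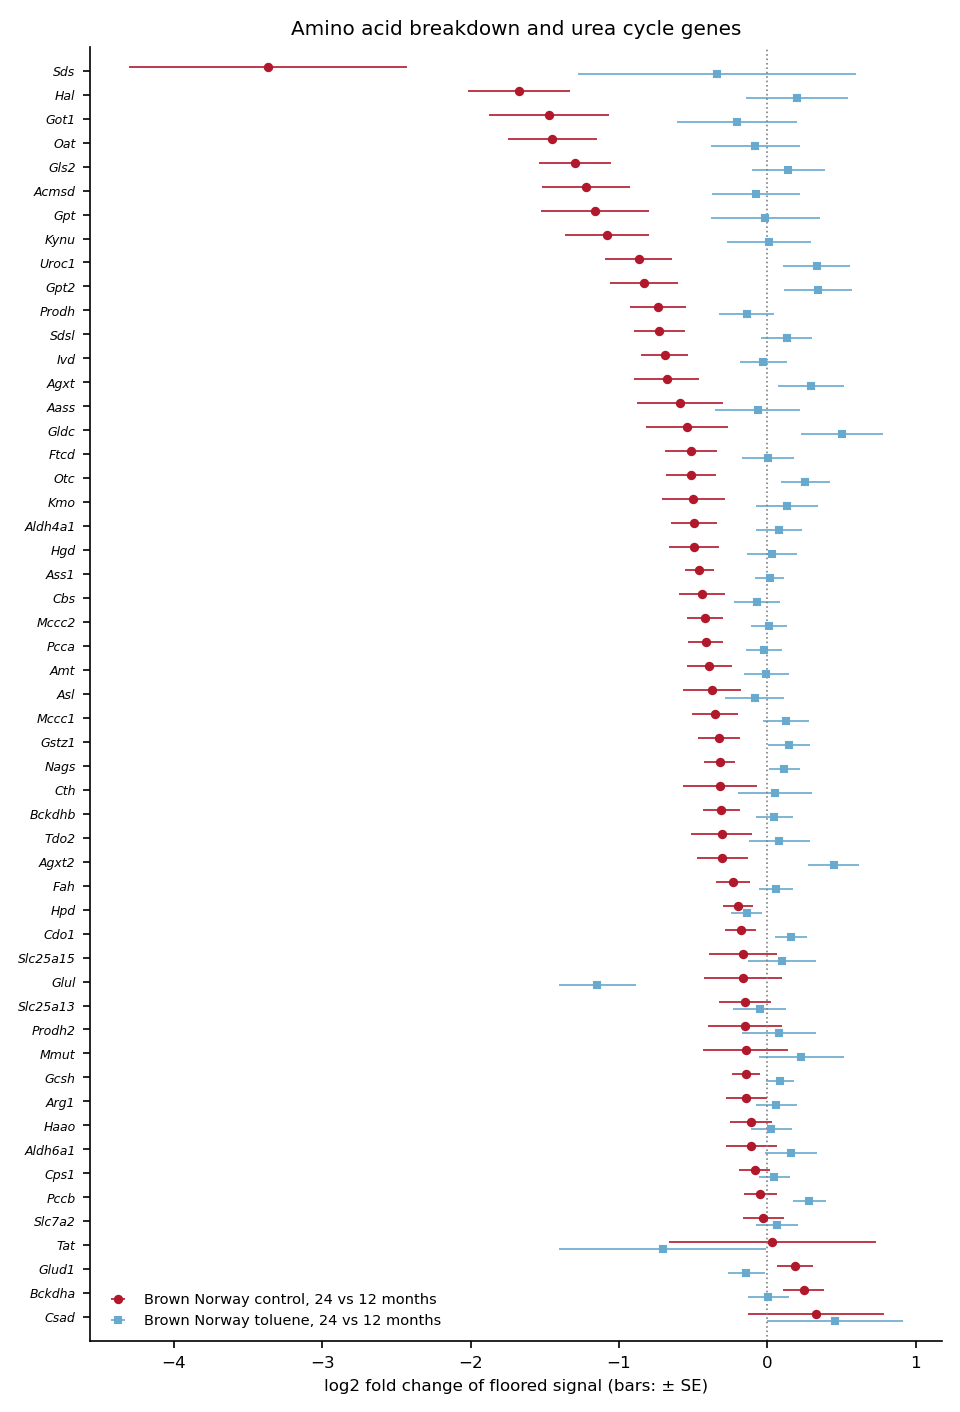
Log2 fold change of floored signal, 24 over 12 months, for the tested amino acid breakdown and urea cycle genes (rows), in control rats (red circles) and toluene-dosed rats (blue squares); bars are SEs from the fit. Control points lie left of 0 for 49 of 53 genes, and dosed points lie about 0, with a median of 0.05.

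The level of the whole list, the mean log2 signal of its members minus the mean of the 12-month controls, put the older controls at -0.71, -0.20 and -0.62. One dosed array of 12 months, the third, lay at -0.36. These arrays also differed in red blood cell markers, mostly in Hbb, a globin. Summed signals of the 5 measured markers were 1662, 4773 and 3100 in 24-month controls, against 5819, 5050 and 6173 in 12-month controls, and the third 12-month dosed array had 1074. Most of these control sums was Hbb, with means of 3078 in 24-month and 5481 in 12-month controls. Alas2 averaged 58.3 and 139.8. Ahsp was below the floor on all 6 control arrays, and Slc4a1 and Car1 each exceeded it on only 1, a 12-month array. The first 24-month control, lowest in amino acid genes, was the lowest control in this sum too. The part of blood cell RNA in these results was not tested.

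**Figure D4:**
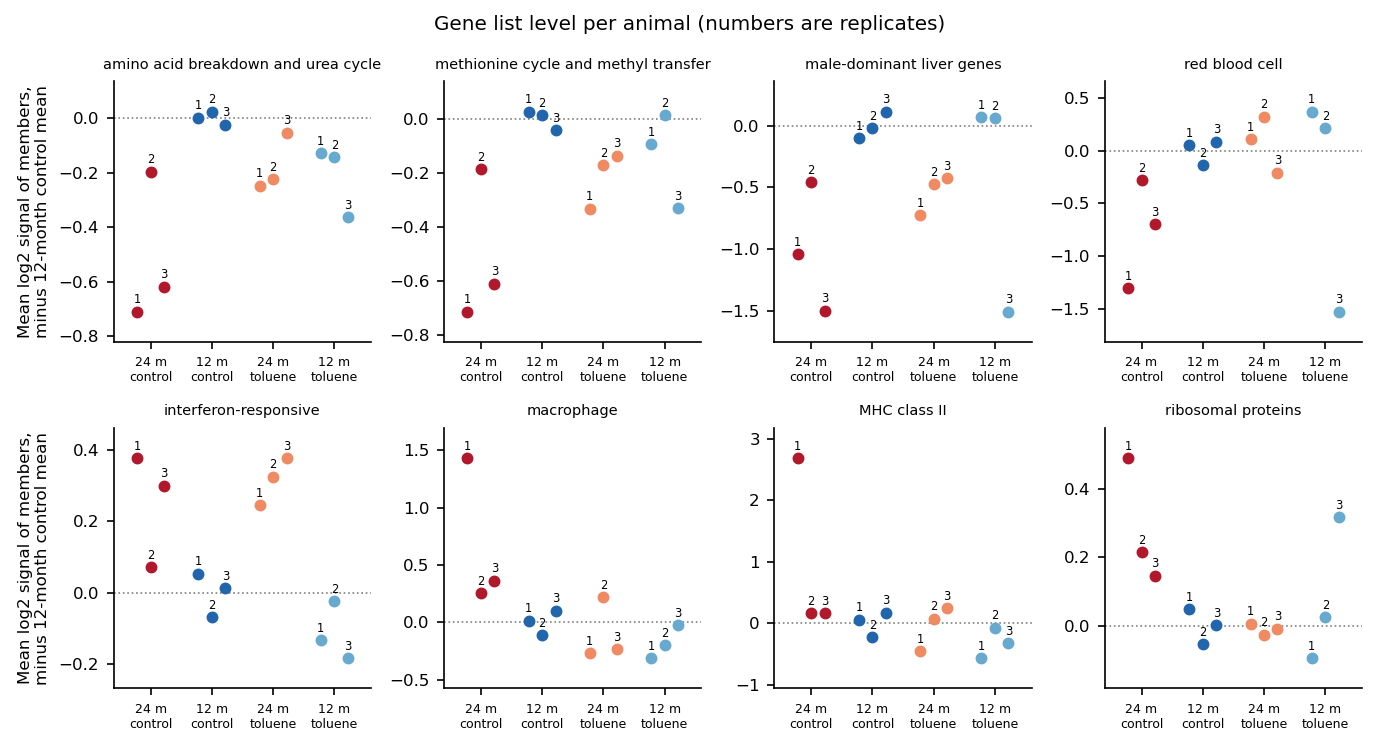
Mean log2 signal of the members of 8 lists in each rat, relative to the mean of the 12-month controls (0, dotted line), for 24-month control, 12-month control, 24-month toluene and 12-month toluene rats from left to right; numbers are replicates. The first 24-month control stands highest for macrophage (1.43) and MHC class II genes (2.69), and the third 12-month toluene rat lies at -1.51 for male-dominant genes and -1.53 for red blood cell markers.

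Male-dominant liver genes were also lower in older controls. Of 20 tested, 10 were lower and 0 higher at an unadjusted p under 0.05, against backgrounds of 6.87% and 7.65% (median log2 fold change -0.66). For 14 the older rats lay wholly below the younger ones, as for 7.99% of all genes. Leaving out any one control left between 7 and 10 lower. Cyp2c11, a steroid hydroxylase and the leading P450 of male rat liver, had 2129, 4296 and 2524 in 24-month controls, against 4343, 4963 and 5413 in 12-month controls. The older rats lay below the younger ones, the second only narrowly (log2 fold change -0.78, SE 0.24, unadjusted p = 0.00532, adjusted p = 0.191). Stac3, best known for excitation-contraction coupling in muscle, had 23.9, 207 and 7.14 in 24-month controls, against 969, 562 and 1291 in 12-month controls, and Inmt, an amine N-methyltransferase, had 113, 379 and 26.3 in 24-month controls, against 884, 1756 and 1975 in 12-month controls. Both were far lower in every older rat, with log2 fold changes of -3.90 (SE 1.01) and -3.71 (SE 0.94) and adjusted p of 0.136 and 0.132. Cyp3a2, another male-specific P450, overlapped, with 3754, 4743 and 1886 in 24-month controls, against 3449, 4748 and 4593 in 12-month controls (log2 fold change -0.39), as did the steroid sulfotransferase Sult1e1, with 3456, 3779 and 4084 in 24-month controls, against 3598, 4324 and 3609.7 in 12-month controls (log2 fold change -0.03).

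In F344 livers the list differed more. There 17 of its 20 tested members fell between 11 and 24 months and 0 rose at an adjusted p under 0.05. Of all F344 genes 2.32% fell and 2.6% rose. The list's median log2 fold change in F344 livers was -3.48. At that threshold 0 of 20 members fell or rose in Brown Norway controls, where 0.0233% of all genes passed. Cyp2c11 had 548, 208, 387 and 120.1 in 24-month F344 rats, against 6949.5, 6070.4, 5744 and 5387 in 11-month F344 rats (log2 fold change -4.48, adjusted p = 2.06e-07), and Cyp3a2 had 219, 210.5, 542 and 117 in 24-month F344 rats, against 5185, 5482, 5806 and 5123 in 11-month F344 rats (log2 fold change -4.54, adjusted p = 9.57e-08). In both genes all 4 older F344 rats lay far below the younger ones. The strains differed in the size of the change, after adjustment, for 13 of 7964 genes (0.163%), and 7 of the 19 male-dominant genes comparable in both were among them. For Cyp2c11 the Brown Norway difference exceeded the F344 one by 3.70 on the log2 scale (SE 0.40, adjusted p = 0.000196), for Cyp3a2 by 4.15 (adjusted p = 0.000196) and for Sult1e1 by 4.58 (adjusted p = 1.71e-06). These 3 passed with each array left out in turn, while the count of 13 ran between 7, without the fourth 24-month F344 rat, and 22, without the third. Stac3 had an F344 log2 fold change of -3.84 beside its Brown Norway -3.90, and Inmt -3.53 beside -3.71. The younger ages differ by a month between strains, each strain was fitted on its own, and the Gapdh 3'/5' ratio was 1.74, 1.38, 1.94 and 2.17 in 24-month F344 rats, against 7.33, 3.74, 1.88 and 1.49 in 11-month F344 rats. The part of RNA quality in this difference was not tested.

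**Figure D5:**
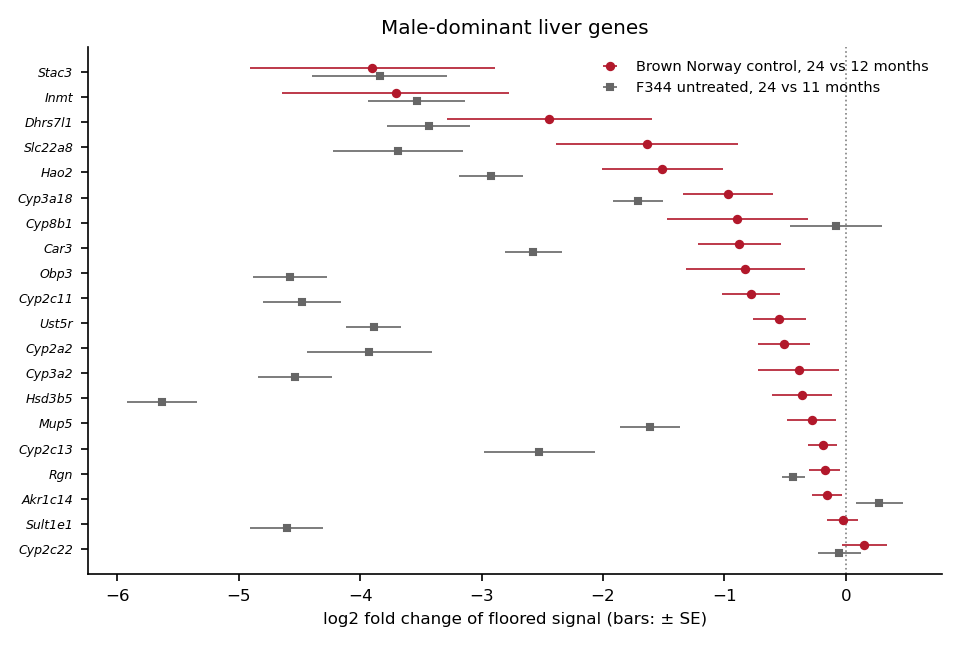
Log2 fold change of floored signal for 20 male-dominant liver genes (rows), 24 over 12 months in Brown Norway controls (red circles) and 24 over 11 months in F344 rats (grey squares); bars are SEs. Brown Norway values run between -3.90 for Stac3 and 0.15, with a median of -0.66, and the F344 median is -3.48.

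Between dosed ages 1 male-dominant gene was lower and 0 higher, against backgrounds of 1.23% and 1.99% (median log2 fold change 0.04). The control difference lay below the dosed one for 6 of the 20, against 6.22% of all genes. These values rest on 1 rat. Without the third 12-month dosed rat 7 genes were lower at 24 months among dosed rats, with a median of -0.30. Without that rat the count of 6 became 1. Leaving out other rats took it between 2 and 11, the least without the first 24-month control or the third 24-month dosed rat and the most without the first 12-month dosed rat, with 10 without the second of these and 3 without the third control of either age.

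Female-dominant genes showed no common direction in Brown Norway controls, with 4 of 12 higher and 2 lower and a median log2 fold change of 0.00. The backgrounds were 7.65% and 6.87%. Cyp2c12, the female-specific P450, had 111, 26.5 and 38.5 in 24-month controls, against 35.1, 35.3 and 35.6 in 12-month controls, where the first older rat stood above all others (log2 fold change 0.54, unadjusted p = 0.104). Its F344 signals were 5712, 6662, 5935 and 7441 in 24-month F344 rats, against 177, 957, 973 and 342 in 11-month F344 rats (log2 fold change 3.72, adjusted p = 0.00112). Prlr, the prolactin receptor, was highest in the third older control, with 57.2, 75.4 and 368 in 24-month controls, against 24.8, 43.9 and 37.03 in 12-month controls, and so was Trim24, a transcriptional cofactor, with 45.7, 37.9 and 249.8 in 24-month controls, against 30.7, 37.6 and 25.7 in 12-month controls. Neither overlapped (log2 fold changes 1.64 and 1.16). Cyp3a9, a P450 that is female-dominant in rats, went the other way, with 647, 1216 and 581 in 24-month controls, against 1859.6, 2378 and 2089 in 12-month controls (log2 fold change -1.45, SE 0.29, adjusted p = 0.0749). In F344 livers 9 of 16 such genes rose and 1 fell at an adjusted p under 0.05, with a median of 1.42. Of all F344 genes 2.6% rose and 2.32% fell. At that threshold 0 of 12 such genes rose or fell in Brown Norway controls, where 0.0233% of all genes passed.

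The cytochrome P450 list as a whole had 11 of 31 members lower and 0 higher in older controls, against backgrounds of 6.87% and 7.65% (median log2 fold change -0.22). Without the first 24-month control 6 were lower, and without the third 3 were higher. Cyp2d4, which oxidises amines, had 121, 158 and 108 in 24-month controls, against 223, 314 and 393 in 12-month controls, without overlap (log2 fold change -1.25, SE 0.23, adjusted p = 0.0749), and it fell in F344 livers too (log2 fold change -1.36, adjusted p = 0.00177). Cyp1a2, which oxidises aromatic amines, had 2040.4, 2871 and 3027 in 24-month controls, against 3482, 3588 and 3592 in 12-month controls (log2 fold change -0.45, unadjusted p = 0.0182), and Cyp4v3, a fatty acid hydroxylase, had 666, 554 and 825 in 24-month controls, against 921, 1153 and 1264 in 12-month controls (log2 fold change -0.71). A dimmer Cyp4v3 probe set had a log2 fold change of -0.47 in limma on each probe set (unadjusted p = 0.116). Cyp2e1, the P450 best known for oxidising toluene and ethanol, overlapped, with 7112, 6527 and 7679.7 in 24-month controls, against 7004, 7394 and 7375 in 12-month controls, and the 95% interval of its log2 fold change ran from -0.23 to 0.16. Por, which hands electrons to all P450s, also overlapped, with 529, 680.2 and 236 in 24-month controls, against 261, 569 and 350.2 in 12-month controls. Cyp2b1, which phenobarbital induces, did not pass the filter on low signals.

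Conjugating enzymes, which couple sugars, sulfate, glutathione or glycine to substrates, had 15 of 53 lower and 5 higher and a median of -0.20. The backgrounds were 6.87% lower and 7.65% higher, and the higher count lies near its background. The lower count was 8 without the first 24-month control, 7 without the second 12-month control and 9 without the third, and the higher count was 3 without the second 12-month control. Gstm7, a glutathione transferase, had 142, 383 and 209.5 in 24-month controls, against 624, 717 and 602 in 12-month controls, without overlap (log2 fold change -1.52, SE 0.31, adjusted p = 0.0841). Glyatl2, a glycine acyltransferase relative, had 189, 173 and 204 in 24-month controls, against 87.6, 131 and 99.6 in 12-month controls, higher in every older rat (log2 fold change 0.85), and Ugt2b10, a glucuronosyltransferase, had 417, 452 and 907 in 24-month controls, against 19.5, 15.7 and 424 in 12-month controls, where the third younger rat overlapped. Of 81 other enzymes of phase 1 metabolism 13 were lower and 2 higher, with a median of -0.15, 7 were lower without the first 24-month control and 18 without the third. Akr1c3, a steroid reductase, had 35.2, 82.4 and 33.6 in 24-month controls, against 191, 143 and 213 in 12-month controls (log2 fold change -1.97), and Pon3, a lactonase, had 1669.5, 2017 and 2015 in 24-month controls, against 2925, 2653 and 2611 in 12-month controls (log2 fold change -0.53). Both were lower in all older rats.

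Macrophage markers were higher in older controls, most of all in 1 rat. Of 18 tested, 13 were higher and 0 lower at an unadjusted p under 0.05, against backgrounds of 7.65% and 6.87% (median log2 fold change 0.80). For 10 the older rats lay wholly above the younger ones, as for 8.89% of all genes. Summed signals of the 19 measured markers were 15241, 7554 and 7538 in 24-month controls, against 6264, 6182 and 7644 in 12-month controls, with Ms4a7 below the floor on all 6 arrays. The first older rat thus had the highest sum, and the other older rats lay within the range of the younger ones. Without it 5 markers were higher and 1 lower, with a median of 0.38, and without the second 12-month control 7 were higher. Cd163, a haemoglobin scavenger receptor of resident macrophages, had 458, 211 and 211 in 24-month controls, against 132, 117 and 135 in 12-month controls, without overlap (log2 fold change 1.10, adjusted p = 0.112). Adgre1, the F4/80 antigen, had 127, 62.9 and 84.4 in 24-month controls, against 62.5, 35.7 and 25.0 in 12-month controls, and Aif1, a calcium-binding protein of macrophages, had 315, 125 and 160.0 in 24-month controls, against 107, 91.1 and 72.3 in 12-month controls. All older rats exceeded the younger ones in Aif1, and in Adgre1 the second older rat exceeded the first younger one only narrowly.

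Gpnmb, a glycoprotein of lipid-laden macrophages, had 3184, 351 and 368 in 24-month controls, against 170.4, 152 and 152 in 12-month controls. Every older rat exceeded every younger one, and the first stood far above the rest (log2 fold change 2.24, SE 0.61, adjusted p = 0.151). In dosed rats it was 140.0, 223 and 180.3 in dosed 24-month rats, against 142, 146 and 303 in dosed 12-month rats, with overlap. Gpnmb rose in F344 livers (log2 fold change 1.02, adjusted p = 0.00545).

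MHC class II genes, which antigen-presenting cells express, had 4 of 8 members higher and 0 lower, against backgrounds of 7.65% and 6.87%. These counts and the median log2 fold change of 1.05 rested on the same rat. Cd74, their invariant chain, had 2552, 460.2 and 346 in 24-month controls, against 376, 284 and 360.0 in 12-month controls, and RT1-Db1, a class II beta chain, had 742, 82.3 and 86.8 in 24-month controls, against 87.0, 58.0 and 75.2 in 12-month controls; outside the first older rat the groups overlapped. Without that rat 1 member was higher and the median was 0.19, without either of the other older rats 7 were higher, and without the first or the second 12-month control 2 were. Ctss, a protease that trims the invariant chain, was the clearest member, with 2122, 815 and 868 in 24-month controls, against 544, 560.0 and 585 in 12-month controls, apart in all rats (log2 fold change 1.03, unadjusted p = 0.00311). Ctss is counted among the macrophage markers as well.

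T cell markers were near the floor. The counts of T, B and plasma cell markers stand against backgrounds of 7.65% of genes higher and 6.87% lower at an unadjusted p under 0.05. All 3 tested T cell markers were higher in older controls, with summed signals of the list of 337, 199 and 215 in 24-month controls, against 169, 176 and 185 in 12-month controls, but Cd3e, Cd247, Cd5, Cd6 and Cd8a were below the floor on all 6 arrays. Lck, a kinase of the T cell receptor, had 52.8, 40.3 and 45.6 in 24-month controls, against 29.9, 38.1 and 36.9 in 12-month controls, and Il7r, the interleukin-7 receptor, had 92.0, 39.6 and 55.5 in 24-month controls, against 27.6, 44.8 and 36.3 in 12-month controls. Of 5 tested B and plasma cell markers 3 were higher, with sums of 3284, 1473 and 1055 in 24-month controls, against 777, 921 and 980 in 12-month controls. Mzb1, a chaperone of plasma cells, had 40.8, 52.4 and 44.0 in 24-month controls, against 7.10, 32.05 and 36.0 in 12-month controls. The first older rat had the highest sum in both lists. Cd74, which the MHC class II list holds too, gave 2552, 460.1 and 346 of the B and plasma cell sums in 24-month controls, against 376, 284 and 360.0 in 12-month controls. Without Cd74 those sums were 733, 1013 and 709 in 24-month controls, against 401, 636 and 620.1 in 12-month controls, so that the second older rat was highest and the groups did not overlap. The part of immune cell content in the interferon, MHC and macrophage results was not tested.

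Macrophage and MHC class II genes had no such member in dosed rats. There 0 of 18 macrophage and 0 of 8 MHC class II genes passed an unadjusted p under 0.05 in either direction, with medians of 0.09 and 0.24. Only 1.99% of all genes were higher and 1.23% lower there, so that lists of this size may hold none. Macrophage sums were 4837, 7216 and 5442 in dosed 24-month rats, against 5334, 5563 and 5861 in dosed 12-month rats. The control difference exceeded the dosed one for 3 of 18 macrophage markers at an unadjusted p under 0.05, against 5.21% of all genes. That count was 9 without the third 24-month control, 8 without the second 24-month control or the second dosed 24-month rat, and 1 without the first 24-month control, the third 12-month control or the third dosed 24-month rat.

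Markers of the sinusoidal endothelium, stellate cells and cell division moved less. Their counts stand against backgrounds of 7.65% of genes higher and 6.87% lower. Of 13 endothelial markers 3 were higher and 1 lower. Lyve1, a hyaluronan receptor of these cells, had 837, 803 and 832 in 24-month controls, against 553, 483 and 422 in 12-month controls, without overlap (log2 fold change 0.77, SE 0.17, adjusted p = 0.098), and Clec4m, a lectin, had 127, 93.5 and 67.2 in 24-month controls, against 58.9, 47.2 and 62.3 in 12-month controls (log2 fold change 0.74). Clec1b, a lectin of Kupffer cells and platelets, had 59.7, 94.1 and 57.2 in 24-month controls, against 41.2, 48.4 and 27.6 in 12-month controls (log2 fold change 0.78). Of 25 stellate cell and matrix genes 1 was higher and 2 lower, and Lox, which cross-links collagen, had 18.9, 259 and 21.8 in 24-month controls, against 351, 583 and 1051 in 12-month controls with an SE of 1.07 about its log2 fold change of -3.22. Of 9 proliferation genes 1 was higher and 0 lower.

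Ribosomal protein genes were higher by a small, common amount. All 41 had a positive log2 fold change in controls, with a median of 0.29. At an unadjusted p under 0.05, 22 were higher and 0 lower, against backgrounds of 7.65% and 6.87%. For 26 the older rats lay wholly above the younger ones, as for 8.89% of all genes. Summed signals of 45 measured genes were 140490, 114010 and 109810 in 24-month controls, against 103650, 94704 and 99720 in 12-month controls. Each older rat exceeded each younger one, and the first the most. Without it 1 gene was higher, with a median of 0.18, without the second 12-month control 6 and without the third 12. Rpl35a, of the large subunit, had 2428, 2071 and 1891 in 24-month controls, against 1699, 1608 and 1271 in 12-month controls (log2 fold change 0.48, unadjusted p = 0.00402, adjusted p = 0.175). In dosed rats 0 passed either way, with a median of -0.09, where 1.99% of all genes were higher and 1.23% lower. The control difference exceeded the dosed one for 16 genes, against 5.21% of all genes. That count became 30 without the first 12-month dosed rat, and 10 and 9 without the third and the second 24-month dosed rats. It was 8 without the second or the third 12-month control, and 3 without the first 24-month control or the third 12-month dosed rat. Scaling each array again by its median moved the median of all genes by -0.05.

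Genes of the actin cytoskeleton and adhesion had 13 of 36 members higher and 0 lower, against backgrounds of 7.65% and 6.87%. Their median was 0.36, and 6 were higher with a median of 0.10 without the first older rat. Actg1, a cytoplasmic actin, had 4323, 5364 and 3294 in 24-month controls, against 3085, 2326 and 2989.7 in 12-month controls, Arpc3, of the complex that branches actin filaments, had 944, 606 and 685 in 24-month controls, against 597, 523 and 424 in 12-month controls, and Tubb6, a tubulin, had 57.8, 79.8 and 78.2 in 24-month controls, against 27.3, 15.6 and 43.9 in 12-month controls. Older rats exceeded younger ones in all 3 (log2 fold changes 0.61, 0.52 and 1.00). A dimmer Actg1 probe set had a log2 fold change of 0.27 in limma on each probe set (unadjusted p = 0.11). In dosed rats 0 passed either way, where 1.99% of all genes were higher and 1.23% lower. The median was -0.16, and 9 were lower without the first 12-month dosed rat.

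Of 73 subunits of oxidative phosphorylation 3 were higher and 2 lower, with a median of 0.00, and Sdhb, of complex II, had 1389, 1242 and 1308 in 24-month controls, against 1597, 1599 and 1613 in 12-month controls (log2 fold change -0.29). Of 10 hepatocyte markers 0 were higher and 1, Ass1, lower. Alb had 8296, 7639.8 and 7909.7 in 24-month controls, against 7311, 7594 and 7738 in 12-month controls, and its log2 fold change of 0.07 had a 95% interval from -0.10 to 0.25. Of 20 genes of p53, growth arrest and senescence 2 were higher and 1 lower, near the backgrounds of 7.65% and 6.87%. Ccng1, a p53 target, had 217, 238 and 132 in 24-month controls, against 88.6, 82.0 and 59.2 in 12-month controls, without overlap (log2 fold change 1.33, unadjusted p = 0.00529). Cdkn1a, the cell cycle inhibitor p21, had 169, 295 and 89.1 in 24-month controls, against 51.7, 47.4 and 100.8 in 12-month controls, where the third rats of both ages overlapped (log2 fold change 1.39, SE 0.55, unadjusted p = 0.0233), and it fell in F344 livers (log2 fold change -1.75, adjusted p = 0.00129). A dimmer Cdkn1a probe set had a log2 fold change of only 0.17 in Brown Norway controls in limma on each probe set (unadjusted p = 0.234). Rgn, a calcium-binding protein named as a marker of senescence, had 3341, 3153 and 4132 in 24-month controls, against 4076, 4052 and 3792 in 12-month controls, and Gstp1, a glutathione transferase of preneoplastic foci, had 531, 323 and 281 in 24-month controls, against 257, 294 and 299 in 12-month controls. Neither showed groups apart.

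Between dosed ages 8 genes passed the adjusted threshold (0.0932%), 6 higher and 2 lower. Scd, which desaturates stearate, rose most, with 425, 286 and 905 in dosed 24-month rats, against 25.8, 17.7 and 75.9 in dosed 12-month rats (log2 fold change 3.49, adjusted p = 0.000253), while controls had 26.6, 30.2 and 20.2 in 24-month controls, against 31.96, 17.6 and 36.9 in 12-month controls, near or below the floor. Nr0b2, the bile acid-responsive repressor SHP, fell in dosed rats, with 51.0, 30.4 and 96.3 in dosed 24-month rats, against 287, 335 and 553 in dosed 12-month rats (log2 fold change -2.80, adjusted p = 0.0349), while controls had 54.8, 70.5 and 58.2 in 24-month controls, against 45.3, 62.6 and 43.3 in 12-month controls. Alas1, the first enzyme of haem synthesis, fell as well, with 728, 935 and 1122 in dosed 24-month rats, against 2726, 2881 and 2649 in dosed 12-month rats (log2 fold change -1.59), while controls had 300.4, 572 and 727 in 24-month controls, against 909, 638 and 716 in 12-month controls. The first and the second older controls lay below the younger ones and the third overlapped them. Scd passed without each dosed rat in turn, as did Isg15, whereas Nr0b2 and Alas1 passed only with all 6 dosed rats or without the third of the 24-month ones. Otherwise the adjusted p was between 0.0832 and 0.19 for Nr0b2 and between 0.0681 and 0.122 for Alas1. The 8 genes became 2 without the first dosed 24-month rat.

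The difference between the control and the dosed effect of age passed for 3 genes (0.0349%). They were Scd, Tsku and N4bp2l1. Tsku, a secreted leucine-rich protein made by liver, had 193, 209 and 68.0 in 24-month controls, against 16.9, 33.4 and 27.1 in 12-month controls (log2 fold change 2.11, adjusted p = 0.0965), and 96.9, 173 and 75.3 in dosed 24-month rats, against 368, 299.6 and 1076 in dosed 12-month rats (log2 fold change -2.19). Its older controls all exceeded the younger ones and its older dosed rats all lay below the younger ones, a difference of 4.29 (SE 0.64, adjusted p = 0.0257). For N4bp2l1 the difference was 0.89 (adjusted p = 0.0477). None of the 3 held without each rat in turn. Scd missed the threshold without the first 24-month control, the first or the second 12-month control, or the first dosed 24-month rat (adjusted p between 0.0526 and 0.0676). Tsku missed it without the first or the second 24-month control, any one 12-month control, or the first or the third dosed 24-month rat (adjusted p between 0.0561 and 0.12). N4bp2l1 missed it without any rat of the 4 groups other than the first dosed 12-month rat (adjusted p between 0.0576 and 0.182).

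Control rats of 4 months gave a second younger group. Between 24 and 4 months 15 genes rose and 6 fell, 21 in all, which became 137 without the second 24-month control, 47 without the third, 6 without the first, 12 and 7 without the second and first 4-month controls and 0 without the third. Between 12 and 4 months limma called 0 genes, and 334 had an unadjusted p under 0.05. Both comparisons share arrays with the one at 12 months and are given as values only. At 4, 12 and 24 months Glipr1 had mean signals of 33.5, 44.9 and 115 (24 over 4 months log2 fold change 1.71, adjusted p = 0.0081). Isg15 had 51.5, 57.1 and 102 at those ages (24 over 4 months log2 fold change 0.99, adjusted p = 0.00818). Gls2 had 1362, 1389 and 599 (24 over 4 months log2 fold change -1.27, adjusted p = 0.0428). In all 3 genes the 4- and 12-month means lay close to each other beside the 24-month one. Not every gene was placed so: Parn had 46.8, 59.4 and 61.1 in 4-month controls, which overlapped its 24-month values, and its 24 over 4 months log2 fold change was 0.05.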

How the data were processed

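Liver RNA was measured on 34 arrays, of which the 6 compared here, the other 12 Brown Norway arrays and 16 F344 arrays entered the fits. The deposited intensity values were linear probe set signals, without counts; the submitters' processing notes name MAS5 and RMA, and neither their version nor which made the values is given in the sources used here. Arrays of a strain had nearly equal signal distributions (median coefficient of variation 1.62% over sorted Brown Norway signals), so no further scaling was applied. Groups came from the array titles, which give each rat its own number; replicate numbers here follow the order of the arrays and pair nothing.

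Signals under 32 were set to 32 and taken as log2. Of 24946 probe sets, 17584 carried 1 gene symbol, 393 several, 6916 none and 53 were array controls; symbols come from the platform annotation, updated through the reference gene table. A gene was read from the probe set of highest mean log2 signal, and of 225 listed or named genes with several tested probe sets 179 had all of them in 1 direction. Genes above the floor on at least 3 Brown Norway arrays (4 for F344) were tested, 8586 of 11984 with a probe set. Group means over all 18 Brown Norway arrays were fitted with limma 3.58.1 in R 4.3.3, with empirical Bayes moderation and Benjamini-Hochberg adjustment at 0.05, and the control and dosed contrasts and their difference were read from that fit. F344 was fitted apart, and the strain difference was taken from both estimates and standard errors, with values on differently scaled arrays. Fold changes are on the floored scale and understate those of dim genes.

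Members and lists were chosen with earlier results of these data known. Named by rule are genes that passed without overlap, the 20 of smallest p, the leading genes of each list and a set of well-known liver genes. Named outside it, after their values were seen, are Scd, Tsku, Alas1, Nr0b2, Usp18, Mx2, Helz2, Oas1a, Sult1e1, Uroc1, Prodh, Gpt2, Sdsl, Ivd, Kynu, Acmsd, Otc, Nags, Cps1, Arg1, Tat, Bckdha, Glud1, Csad, Glul, Cd74, RT1-Db1, Prlr, Trim24 and the genes that passed in the strain difference, as are the genes of the closing observations. Alternatives were the choice of probe set, the floor, the filter, rescaling, moderation, array weights, a fold minimum, fits on fewer arrays and leaving out each array. The gene list counts without single arrays and the B cell sums without Cd74 were added after seeing the data. The procedure was tested on simulated data. Promoter sequences and their coordinates are RefSeq's, of build GRCr8; no genome sequence beyond them was used here.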

Additional observations from a re-analysis of the deposited data

Results flagged for a closer look

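The difference between the age effect in control rats and that in dosed rats passed the adjusted threshold for 3 genes. It was 0.89 for N4bp2l1, -3.56 for Scd and 4.29 for Tsku on the log2 scale, control minus dosed, and all 3 calls ended when single rats were left out. The age effect also differed between strains for 13 genes, given as Brown Norway minus F344 on the log2 scale. The male-dominant genes among them were Hsd3b5 at 5.27, Sult1e1 at 4.58, Cyp3a2 at 4.15, Obp3 at 3.75, Cyp2c11 at 3.70, Cyp2a2 at 3.42 and Ust5r at 3.34. Each fell in F344 livers. Hsd3b5, a steroid dehydrogenase, averaged 2614 in 24-month and 3189 in 12-month Brown Norway controls, and 43.3 in 24-month and 2311 in 11-month F344 rats. The other genes were Serpinb9b at -3.52, Tent5a at -2.03, Plin3 at -1.74, Apon at 1.64, Serf1 at 1.63 and Sema4a at -1.44. With each of the 14 arrays left out in turn Cyp2c11, Cyp3a2, Hsd3b5, Obp3, Serpinb9b, Sult1e1 and Ust5r passed every time and Cyp2a2 13 times, while Apon, Plin3, Sema4a, Serf1 and Tent5a passed between 2 and 5 times. Serpinb9b averaged 31.2 in 24-month and 25.98 in 12-month Brown Norway controls, near the floor, and 919.8 in 24-month and 68.2 in 11-month F344 rats.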

How the results depend on the processing

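The 2 genes that passed in controls became 4 with each probe set on its own or with no filter, 5 with probe sets of a gene averaged or with trended and robust moderation, 30 with array quality weights, 1 among genes above the median signal, and 0 with a floor of 8 or of 4 times 32, a minimum of 1.5-fold, or a fit on 9 control arrays or on the 6 compared; leaving out each array gave 0 to 48. The 48 were 30 higher and 18 lower, 7 of them amino acid genes. The 657 higher genes became 322 with the higher floor, 23 with the 1.5-fold minimum and 409 to 900 with an array left out. The 590 lower became 940 probe sets each on its own, 383, 25 and 400 to 708 under the same settings. In dosed rats the 8 became 13 with probe sets averaged, 2 with a floor of 8, 4 with no filter or above the median signal, 1 with the fold minimum and 2 to 9 with an array left out. The 3 of the control minus dosed difference became 0 with either floor or the fold minimum, 1 above the median signal and 0 to 3 with an array left out. With arrays left out, 24 against 4 months gave 0 to 137, 12 against 4 months 0 to 2, the strain difference 7 to 22, and the 454 genes of F344 24 against 11 months 183 to 530. The causes were not tested. Of 78 named genes 74 kept their sign in every alternative for the control comparison, and rescaling moved the median of all genes by -0.05 (median) and -0.02 (quantile). No paired analysis was possible because the replicate numbers follow the order of the arrays and the titles give each rat its own number. With 3 rats a group, dim genes near the floor and whole-liver RNA, small differences were not detectable, and p-values measure the spread among these rats only.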

Other observations

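Of 27 tested genes induced by glucocorticoids and fasting, 6 were higher and 2 lower in older controls at an unadjusted p under 0.05. The backgrounds were 7.65% and 6.87%, and the list's median log2 fold change was 0.40. Fkbp5, a co-chaperone of the glucocorticoid receptor, had 315, 775 and 99.99 in 24-month controls, against 85.7, 61.6 and 87.7 in 12-month controls. Lpin1, a phosphatidate phosphatase, had 959, 1593 and 232 in 24-month controls, against 179.7, 124 and 171 in 12-month controls. Igfbp1, which binds insulin-like growth factors, had 1082, 4845 and 852 in 24-month controls, against 86.9, 429.9 and 879 in 12-month controls. In all 3 the second older control was the highest. The second 4-month control was the highest of its own age, with 412 for Fkbp5, 1686 for Lpin1 and 2643 for Igfbp1. Cholesterol synthesis had 1 of 20 genes higher and 0 lower, not above those backgrounds, with a median of 0.50. Fdps, which makes farnesyl pyrophosphate, had 1986, 1374 and 3531 in 24-month controls, against 1412, 773 and 1029 in 12-month controls, and Sqle, squalene epoxidase, had 93.4, 90.9 and 297 in 24-month controls, against 89.7, 54.8 and 53.5 in 12-month controls. The third older control was the highest of its group in both. Among dosed rats Fdps had 1905, 1172 and 974 in dosed 24-month rats, against 862, 1592 and 3320.3 in dosed 12-month rats, and Sqle had 88.5, 65.4 and 43.1 in dosed 24-month rats, against 35.3, 74.7 and 329 in dosed 12-month rats. The third younger dosed rat was the highest of its group in both.

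Chemokines, cytokines and NF-kappaB genes had 7 of 24 members higher and 2 lower. This and the counts that follow stand against backgrounds of 7.65% of genes higher and 6.87% lower. Cxcl14 had 100.9, 77.1 and 44.2 in 24-month controls, against 39.4, 28.2 and 35.5 in 12-month controls, and Vcam1, an adhesion molecule, had 247, 164 and 92.2 in 24-month controls, against 86.6, 80.9 and 65.7 in 12-month controls, each without overlap. Complement genes had 5 of 23 higher and 2 lower, with 1608, 923 and 896 in 24-month controls, against 686, 634 and 727 in 12-month controls for C1qa. Of 20 genes of metal handling 5 were higher and 1 lower, and Id1, a target of bone morphogenetic proteins, had 264, 208 and 111 in 24-month controls, against 71.5, 37.1 and 74.97 in 12-month controls, without overlap. Of 38 genes of fatty acid oxidation 6 were higher and 0 lower, with a median of 0.08. Of 173 solute carriers 14 were higher and 18 lower, near those backgrounds. Slc7a7, a carrier of cationic amino acids, had 111, 45.7 and 57.3 in 24-month controls, against 32.04, 29.6 and 32.3 in 12-month controls, and Slc17a1, an organic anion carrier, had 172, 259 and 306 in 24-month controls, against 392, 365 and 518 in 12-month controls; both showed groups apart. Among liver transcription factors Foxa1 had 43.3, 35.1 and 38.3 in 24-month controls, against 87.4, 65.5 and 52.8 in 12-month controls, lower in every older rat (log2 fold change -0.79, unadjusted p = 0.00938).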
